A study of Mus musculus with 64 samples.

Results

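The T lymphocyte genes described here are Cd3d, Cd3e, Cd3g, Cd4, Cd8a, Cd8b1, Lck, Tcf7 and Gpr174. They were chosen by gene symbol, with earlier results of these data known. All 9 were found in each of the 4 tissue tables, which together list 25107 genes. The 64 libraries are RNA-seq of mouse inguinal white fat (12), lung (12), heart (20) and liver (20), and each tissue was sampled in 4 groups. Sedentary vehicle mice were not exercised, trained vehicle mice ran daily on a treadmill for 6 weeks, and sedentary knockout and trained knockout mice are labelled as lacking Bmal1, an activator at the centre of the circadian clock, in skeletal muscle. Every mouse, controls included, carried the genotype given as Cre+:iMSBmal1 fl/fl, and the controls received vehicle in place of the agent that starts the deletion, so an effect of that agent and of the deletion cannot be told apart. Collection followed the final exercise bout by 48 hours. Age, sex, the promoter that drives Cre and the time of day of collection are not given in the sources used here, nor is it stated whether libraries of different tissues come from the same animals. Groups held 3 libraries each in fat and lung and 5 each in heart and liver.

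The T cell receptor recognises antigen but signals through the CD3 chains, which Cd3d, Cd3e and Cd3g encode. The coreceptors CD4 (Cd4) and CD8 (the alpha chain from Cd8a and the beta chain from Cd8b1) bind MHC class II and class I and bring with them LCK, the kinase (Lck) that phosphorylates the CD3 chains. Tcf7 encodes TCF-1, a transcription factor of T cell development and of naive and memory T cells, and Gpr174 encodes a G protein-coupled receptor for lysophosphatidylserine found on lymphocytes. Not all of these genes are restricted to T cells: B cells also express Gpr174, some dendritic cells express Cd4 or Cd8a, and innate lymphoid cells express Tcf7. The inguinal fat pad encloses a lymph node, and the lung holds resident and circulating T cells.

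By the coordinates given for fat and lung, which differ from those of GRCm38 and are read as GRCm39, Cd3g (chr9:44880870-44891730, minus strand), Cd3d (chr9:44893084-44898351, plus strand) and Cd3e (chr9:44910041-44920910, minus strand) lie side by side. Cd8b1 (chr6:71299772-71314477) and Cd8a (chr6:71350411-71356156) are plus-strand neighbours, and Cd4 (chr6:124841656-124865164, minus strand) lies farther along the same chromosome. Lck is at chr4:129442137-129467435 (minus strand), Tcf7 at chr11:52143110-52173842 (minus strand) and Gpr174 at chrX:106299484-106340376 (plus strand). The 250 bases upstream of the annotated start are shown for the 3 CD3 genes, for the pair of Lck promoters and for Gpr174, because the CD3 genes lie together, Lck is transcribed from alternative starts and Gpr174 is the member called in lung. The sequences are those of RefSeq on GRCm38.p6, written in the direction of transcription, and capitals mark matches on either strand to CTTTGA (TCF/LEF), TGTGGT (RUNX), CAGGAAGT (ETS), CACCTG (an E box) or an NF-kappa B consensus; no matches overlapped.
Cd3g, chr9:44980432-44980681, minus strand: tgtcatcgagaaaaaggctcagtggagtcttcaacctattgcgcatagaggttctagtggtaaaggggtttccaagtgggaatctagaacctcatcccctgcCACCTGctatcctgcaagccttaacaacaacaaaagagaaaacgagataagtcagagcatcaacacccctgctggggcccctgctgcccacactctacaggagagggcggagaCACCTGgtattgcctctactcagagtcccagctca
Cd3d, chr9:44981536-44981785, plus strand: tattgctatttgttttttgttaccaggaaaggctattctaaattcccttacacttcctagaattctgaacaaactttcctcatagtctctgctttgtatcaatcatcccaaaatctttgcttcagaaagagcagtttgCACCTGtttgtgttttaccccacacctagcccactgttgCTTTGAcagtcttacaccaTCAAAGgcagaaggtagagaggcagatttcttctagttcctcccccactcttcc
Cd3e, chr9:45009612-45009861, minus strand: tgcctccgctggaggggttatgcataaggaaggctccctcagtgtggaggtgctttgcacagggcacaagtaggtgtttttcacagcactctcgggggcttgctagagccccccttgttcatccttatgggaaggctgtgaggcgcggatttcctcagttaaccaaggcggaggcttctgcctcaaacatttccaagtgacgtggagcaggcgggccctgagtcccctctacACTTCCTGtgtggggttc
Lck, upstream promoter, chr4:129573642-129573891, minus strand: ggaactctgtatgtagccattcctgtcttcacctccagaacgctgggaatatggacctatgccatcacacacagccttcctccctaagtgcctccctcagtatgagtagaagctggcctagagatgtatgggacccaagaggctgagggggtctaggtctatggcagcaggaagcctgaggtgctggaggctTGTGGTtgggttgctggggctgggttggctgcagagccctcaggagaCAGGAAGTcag
Lck, downstream promoter, chr4:129558373-129558622, minus strand: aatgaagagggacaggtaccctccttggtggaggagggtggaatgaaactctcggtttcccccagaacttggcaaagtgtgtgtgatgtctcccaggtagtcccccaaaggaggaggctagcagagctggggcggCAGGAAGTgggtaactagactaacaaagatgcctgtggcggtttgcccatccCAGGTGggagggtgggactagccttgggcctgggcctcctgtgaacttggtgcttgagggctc
Gpr174, chrX:107284096-107284345, plus strand: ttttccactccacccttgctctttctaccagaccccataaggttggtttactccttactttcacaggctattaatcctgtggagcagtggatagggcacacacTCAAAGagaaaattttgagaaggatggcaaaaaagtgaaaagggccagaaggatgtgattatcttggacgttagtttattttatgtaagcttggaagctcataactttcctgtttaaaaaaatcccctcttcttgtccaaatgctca

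The table of promoters held 9 windows for 7 of the members (Lck and Tcf7 have 2 each). The ETS letters were found in 3 of the 9 windows, both of Lck and that of Cd3e, against 2.69% of all 32851 windows of this length. The E box letters were found in 3 windows (17.2% of all windows), the TCF/LEF letters in 2 (13.8%), the RUNX letters in 1 (14% of all windows) and the NF-kappa B consensus in 0 (0.0852%). Cd3d holds CTTTGA on both strands within 73 bases of the start, and the Lck upstream promoter holds a RUNX and an ETS match within 58 bases of the start. Such matches are descriptions of letters and say nothing of binding.

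Depth ran from 18.97 to 31.17 M reads (in units of 1000000) per library in fat, 18.67 to 35.69 M in lung, an estimated 14.14 to 20.96 M in heart and 12.39 to 20.67 M in liver. Each tissue held the markers of its label. Adipocyte genes summed to 10900 to 19700 CPM (reads scaled to 1000000 per library) in fat, and surfactant and other epithelial genes to 43300 to 83900 CPM in lung. Cardiac genes summed to 33300 to 39600 CPM in heart and hepatocyte genes to 62100 to 98900 CPM in liver. Some markers of other tissues were present as well, among them hepatocyte genes at 1090 to 6660 CPM in fat. Cardiac genes stood at 232 to 1670 CPM in lung. The targeted gene, listed as Arntl, was deleted in a tissue not measured here and so checks no label. It averaged 1.56 to 2.47 CPM over the groups in fat and 1.82 to 3.21 CPM in lung.

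T lymphocyte transcripts were most abundant in lung and scarce in heart. The 9 genes summed to 53.6 to 135 CPM per library in lung (median 71.7, n = 12), 8.01 to 87.8 CPM in fat (median 24.5, n = 12), 5.67 to 10.1 CPM in liver (median 7.94, n = 20) and 1.68 to 4.91 CPM in heart (median 2.64, n = 20). The 4 tables were normalised separately, so these levels are set side by side without a test. Sedentary vehicle replicate 1 in lung lay far below its group for several members, and trained vehicle replicate 1 in fat lay far above its group. Where either library moves a result below, the values without it follow. In bulk tissue, fewer T cells and less T cell RNA per cell cannot be told apart.

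Per length, Tcf7 was the highest member in lung, at 22 ± 3.99 TPM (transcript abundance per length, scaled to the library, mean ± SD, n = 12), followed by Lck (11.5 ± 4.02), Cd3g (9.79 ± 3.26), Cd3d (8.34 ± 3.2), Cd8b1 (7.34 ± 2.29), Cd3e (6.22 ± 2.37), Cd8a (6.1 ± 2.62), Cd4 (3.36 ± 1.77) and Gpr174 (1.59 ± 1.27). The ranges of every pair of neighbours in this order overlapped. In fat the order was Cd3g (6.23 ± 2.81 TPM, n = 12), Lck (4.78 ± 3.04), Tcf7 (4.67 ± 3.93), Cd3e (4.64 ± 2.8), Cd4 (4.61 ± 2.33), Cd3d (3.68 ± 2.17), Cd8a (2.4 ± 2.54), Cd8b1 (2.2 ± 2.65) and Gpr174 (0.556 ± 0.614), again with overlapping neighbours. The balance of the coreceptors ran in opposite directions in these organs. Within a library, the TPM of Cd4 was 0.291 to 0.844 times that of Cd8a in all 12 lung libraries (median 0.581) and 0.625 to 4.25 times in fat (median 3.17), above 1 in 11 of 12 fat libraries. The exception in fat was sedentary vehicle replicate 2. The TPM of Cd8b1 was 0.997 to 1.92 times that of Cd8a in lung and 0.455 to 1.79 times in fat. In fat this ratio was 1.1, 1.13 and 1.79 in trained vehicle and 0.647, 0.455 and 0.626 in trained knockout libraries. These groups did not overlap, and the ratio was not tested.

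Lck has a pair of promoters. In mouse, the downstream (proximal) promoter is known for its use in thymocytes and the upstream (distal) promoter for its use in mature T cells. The fat and lung tables list transcripts that begin at either, 15269 bases apart, the same distance as between the starts behind the promoter windows printed above. Reads assigned to the upstream transcript made up 64 to 92.4% of Lck reads per lung library (median 85.5%, n = 12) and 55.7 to 99.8% per fat library (median 86.6%, n = 12). By group, the mean share in lung was 86.7 ± 3.77% in sedentary vehicle, 83.2 ± 14.1% in sedentary knockout, 86.6 ± 3.45% in trained vehicle and 75.6 ± 10% in trained knockout mice (n = 3 each). The trained knockout lungs, at 81.3, 81.4 and 64%, lay below every library of either vehicle group and overlapped the sedentary knockout lungs. Lck was not alone in this: the share of the upstream Tcf7 transcript was 40.4, 70.5 and 40.2% in trained knockout lungs. In trained vehicle lungs it was 87.7, 76.3 and 74.6%, without overlap, and in sedentary vehicle lungs 43.1, 59 and 74%, with overlap. No test was made of these shares, which rest on an estimated assignment of reads that the transcripts have in common. Of a list of thymocyte markers, Dntt had values in both tissues, at most 0.105 CPM in lung and 0.211 CPM in fat. The others (Rag1, Rag2, Ptcra and Arpp21) were either not listed for these tissues or at 0 in every library.

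In lung, all 9 T lymphocyte genes had lower fitted levels in trained than in sedentary vehicle mice, and 1 of them, Gpr174, fell past the threshold of the test across all genes. The sum of the 9 genes was 70.5, 115 and 135 CPM in the sedentary vehicle lungs (107 ± 33, SD, n = 3) and 61.3, 66.1 and 53.6 CPM in the trained vehicle lungs (60.3 ± 6.31, SD, n = 3), so that every trained library lay below every sedentary one. Differences below are log2 fold changes with their standard errors from edgeR's quasi-likelihood test, with Benjamini-Hochberg adjustment over the 16151 genes tested in lung and a threshold of 0.05. Whether replicates are separate animals is not stated in the labels, and p-values thus reflect the scatter of these libraries, which may be technical.

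**Figure D1:**
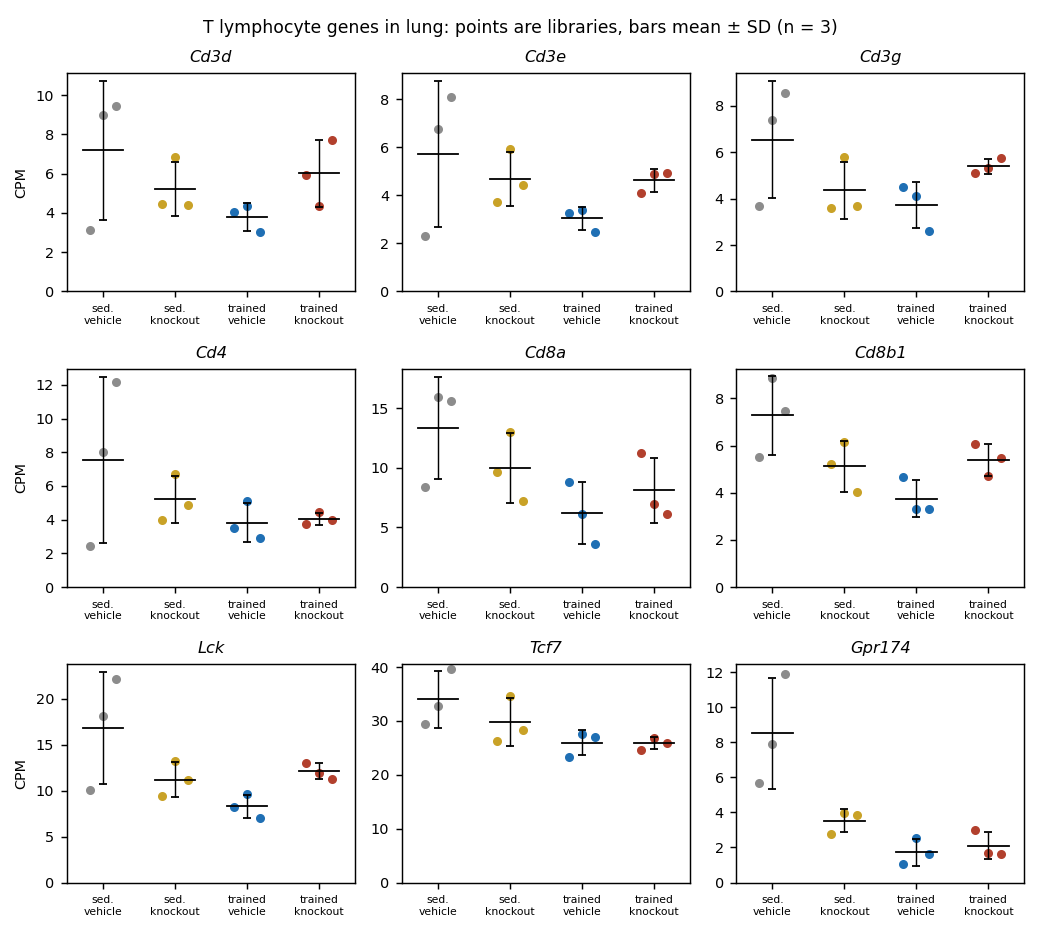
CPM of each of the 9 T lymphocyte genes in the 12 lung libraries, by group; points are libraries and bars are the mean ± SD (n = 3). Gpr174 lies between 5.68 and 11.9 CPM in sedentary vehicle lungs and between 1.03 and 2.55 CPM in trained vehicle lungs.

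The CD3 chain genes did not pass the test. Cd3e, the epsilon chain present in every T cell receptor complex, stood at 2.3, 6.76 and 8.1 CPM in sedentary vehicle lungs and at 3.25, 3.39 and 2.49 CPM in trained vehicle lungs. Sedentary vehicle replicate 1 was lower than every trained library while the other two sedentary libraries were higher, so the groups overlapped. Its fitted difference was -0.86 (SE 0.34, adjusted p = 0.319, edgeR). Cd3d and Cd3g, the delta and gamma chains, had sedentary vehicle replicate 1 inside the trained range, with differences of -0.87 (SE 0.35, adjusted p = 0.328, edgeR) and -0.76 (SE 0.29, adjusted p = 0.306, edgeR).

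Among the coreceptor genes, Cd8b1, the CD8 beta chain that marks conventional CD8 T cells, stood at 5.52, 8.86 and 7.46 CPM in sedentary and at 4.65, 3.31 and 3.3 CPM in trained vehicle lungs. These groups did not overlap, and the difference was -0.91 (SE 0.23, adjusted p = 0.113, edgeR). Cd8a was at 8.36, 15.9 and 15.6 CPM against 8.82, 6.11 and 3.64 CPM. The lowest sedentary library lay inside the trained range, and the difference was -1.05 (SE 0.34, adjusted p = 0.216, edgeR). Cd4 was at 2.41, 7.99 and 12.2 CPM against 3.49, 5.1 and 2.9 CPM, a difference of -0.92 (SE 0.41, adjusted p = 0.372, edgeR), and sedentary vehicle replicate 1 was again the lowest of the 6 libraries.

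Lck, the kinase of the coreceptors, was at 10.1, 18.1 and 22.1 CPM in sedentary and at 8.24, 9.58 and 6.98 CPM in trained vehicle lungs. The groups did not overlap, although sedentary vehicle replicate 1 came close to the trained libraries, and the difference was -0.97 (SE 0.22, adjusted p = 0.0942, edgeR). Tcf7, the transcription factor gene, was at 29.4, 32.8 and 39.7 CPM against 23.3, 27.6 and 27.1 CPM. Its groups did not overlap either, and its difference, -0.34 (SE 0.13, adjusted p = 0.293, edgeR), was the smallest among the 9. Tcf7 contributed 37.4% of the summed CPM of the 9 genes in lung on average, against 17.8% in fat.

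Gpr174, the lysophosphatidylserine receptor gene, was at 5.68, 7.9 and 11.9 CPM in sedentary vehicle lungs and at 1.03, 2.55 and 1.6 CPM in trained vehicle lungs. Every trained library was below every sedentary one, and Gpr174 fell by 2.24 on the log2 scale (SE 0.35, adjusted p = 0.028, edgeR), to 0.212 times the sedentary level. It was the 1 member among the 30 genes called lower in this comparison, where 0.186% of the genes tested were called lower. The call was kept without sedentary vehicle replicate 1 (adjusted p = 0.0105, edgeR) and without trained vehicle replicate 2 (adjusted p = 0.0355, edgeR). It was lost without sedentary vehicle replicate 2, sedentary vehicle replicate 3, trained vehicle replicate 1 or trained vehicle replicate 3, where edgeR's adjusted p was 0.11, 0.143, 0.137 and 0.197 and the difference -2.29, -1.95, -1.98 and -2.19. It was also lost in a fit on the 2 compared groups alone (adjusted p = 0.105, edgeR). DESeq2 called Gpr174 (adjusted p = 4.98e-07), Lck (0.00492) and Cd8b1 (0.0139), among 241 of 16145 genes that it called lower.

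All 9 members had an unadjusted p under 0.05 with a lower level in trained vehicle lungs, as had 7.31% of all genes tested. The 9 were chosen with earlier results known and varied together over the libraries, so such counts are descriptions and not independent tests. The groups did not overlap for 4 of them (Cd8b1, Lck, Tcf7 and Gpr174), and 16.1% of all genes tested were lower in the same way. The median difference of the 9 was -0.911, against -0.00661 over all genes. Without sedentary vehicle replicate 1, the library with the lowest levels of its group, edgeR called 4 members lower: Cd3e (adjusted p = 0.0281), Cd4 (0.042), Lck (0.00967) and Gpr174 (0.0105), and the median was -1.21. Calls rose over all genes as well in that fit, to 178 called lower of 16362 tested.

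**Figure D2:**
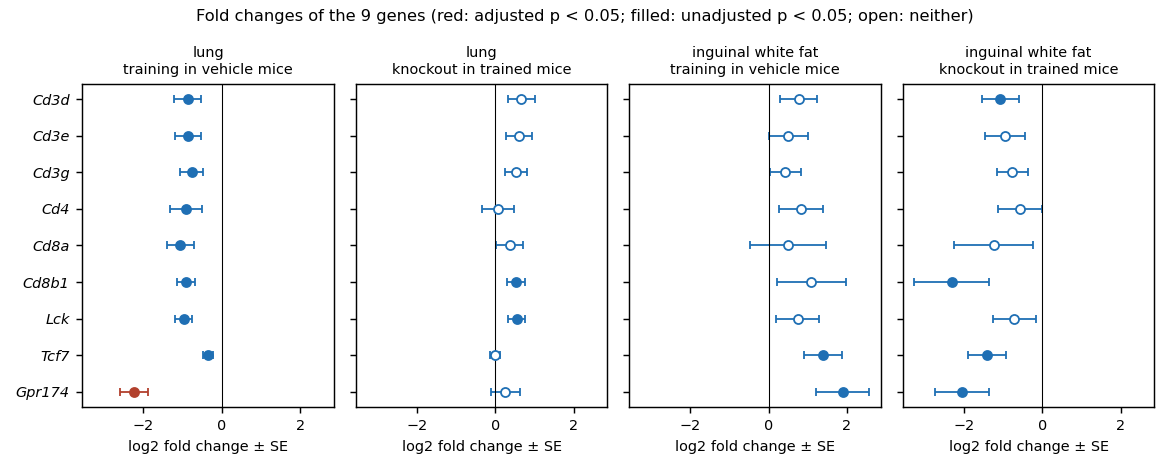
Log2 fold change ± SE of each of the 9 genes for training in vehicle mice and for the knockout in trained mice, in lung and in inguinal white fat. In lung the differences with training are all below 0 and Gpr174, at -2.24, is the 1 point past the adjusted threshold; in fat the differences with training are all above 0 and none passes.

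Other lymphocyte genes were lower in the trained vehicle lungs as well. Of 14 further T cell receptor and signalling genes tested, 14 had lower fitted levels and 1 was called: Themis, a thymocyte and T cell signalling gene, was at 3.91, 4.67 and 5.72 CPM against 1.68, 1.82 and 1.67 CPM and fell by 1.42 (SE 0.228, adjusted p = 0.0352, edgeR). The list's median was -0.838. Trac, Trbc1 and Trbc2, its genes for the constant regions of the receptor chains, were not listed or at 0 in lung and fat. They were therefore not tested. None of 12 surface and co-stimulation genes (median -0.841), 10 transcription factor genes (median -0.816) and 11 natural killer and cytotoxic genes (median -0.768) was called, and 6, 8 and 6 of them had a lower level at an unadjusted p under 0.05.

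Markers of other leukocytes moved with the T lymphocyte genes. All 12 B lymphocyte genes had lower fitted levels in trained vehicle lungs (median -1.84), and 2 were called: Bank1 fell by 2.11 (adjusted p = 0.0467, edgeR) and Fcmr, the IgM Fc receptor gene, by 1.89 (adjusted p = 0.0392, edgeR). The 12 B genes summed to 153, 353 and 473 CPM in sedentary and to 61, 139 and 70.1 CPM in trained vehicle lungs, without overlap. Of 8 genes that all leukocytes express, Cd53 was called and fell by 1.11 (adjusted p = 0.0188, edgeR), and the 8 summed to 467, 809 and 833 CPM against 415, 415 and 375 CPM. Measured against that sum, the 9 T genes stood at 15.1, 14.2 and 16.2% in sedentary and at 14.8, 15.9 and 14.3% in trained vehicle lungs, and these ranges overlapped. Of 12 macrophage and monocyte genes none was called (median -0.167). The part of B lymphocytes and of all leukocytes in the T lymphocyte result was not tested.

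In knockout mice, lung T lymphocyte genes showed no shared direction with training. The sum of the 9 was 68.9, 96.2 and 72.1 CPM in sedentary and 76.7, 71.2 and 72.9 CPM in trained knockout lungs, with overlap. Of the 9 differences 5 were above 0 and 4 below, the median was 0.018, and edgeR called 0 members (0% of all genes) and 0 had an unadjusted p under 0.05, against 16.6% of all genes. Gpr174, at 2.77, 3.95 and 3.87 CPM against 2.97, 1.71 and 1.64 CPM, had the largest difference, -0.73 (SE 0.35, adjusted p = 0.317, edgeR). The training effect in knockout minus that in vehicle lungs was above 0 for all 9 genes, with a median of 1.01. It had an unadjusted p under 0.05 for Lck, Cd8b1, Gpr174, Cd3g and Cd3d (5 of 9, against 8.13% of all genes in that direction), and edgeR called none (0% of all genes). The smallest p was that of Lck, at 1.10 (SE 0.32, adjusted p = 0.217, edgeR), and the largest difference that of Gpr174, at 1.51 (SE 0.49, adjusted p = 0.23, edgeR). Without sedentary vehicle replicate 1, 7 members had an unadjusted p under 0.05 and the median was 1.24. Of the 16362 genes tested in that fit, 2939 had an unadjusted p under 0.05 in either direction.

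The knockout itself moved no member past the test in lung. In sedentary mice all 9 genes were lower in knockout than in vehicle lungs, 2 of them at an unadjusted p under 0.05 (Gpr174 and Lck, against 7.36% of all genes), and edgeR called 0 (0% of all genes). Without sedentary vehicle replicate 1, 7 of the 9 had an unadjusted p under 0.05, as had 1746 of 16362 genes in either direction. The median then moved from -0.482 to -0.782, and over the fits with a library removed it ran from -0.78 to -0.28. Gpr174 was the 1 member without overlap (13.8% of all genes were lower in that way), with a difference of -1.25 (SE 0.34, adjusted p = 0.198, edgeR). DESeq2 called Gpr174 (adjusted p = 0.0317), among 82 of 16145 genes that it called lower. In trained mice 8 of 9 genes were higher in knockout lungs, 2 of them at an unadjusted p under 0.05 (Lck and Cd8b1, against 8.38% of all genes), and 0 were called (0% of all genes). The trained groups did not overlap for Cd3d, Cd3e, Cd3g, Cd8b1 and Lck, against 13.2% of all genes higher in the same way. Lck, at 13, 11.9 and 11.3 CPM in trained knockout and 8.24, 9.58 and 6.98 CPM in trained vehicle lungs, differed by 0.54 (SE 0.22, adjusted p = 0.289, edgeR). Measured against the leukocyte sum, the direction was the other way. The 9 T genes stood at 14.2, 11 and 12.2% of it in trained knockout and at 14.8, 15.9 and 14.3% in trained vehicle lungs. These ranges came close without overlap, and the shares were not tested.

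**Figure D3:**
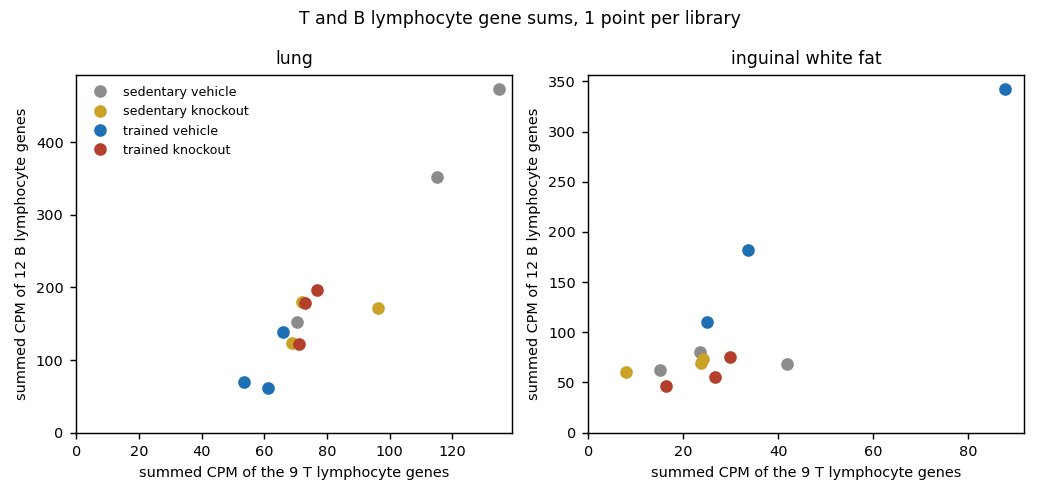
Summed CPM of the 9 T lymphocyte genes (horizontal) against that of 12 B lymphocyte genes (vertical), 1 point per library, in lung and inguinal white fat. In fat 1 trained vehicle library stands apart at 87.8 CPM for T and 342 CPM for B genes.

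In inguinal white fat no T lymphocyte gene passed the test in any of the 5 comparisons, and 1 library carried much of what was seen. The sum of the 9 genes was 15.1, 41.8 and 23.4 CPM in sedentary vehicle, 24.1, 23.8 and 8.01 CPM in sedentary knockout, 87.8, 25 and 33.6 CPM in trained vehicle and 29.8, 26.7 and 16.3 CPM in trained knockout fat. Trained vehicle replicate 1 was the highest of the 12 libraries for each of the 9 genes. The same library was highest for B lymphocyte genes, at a sum of 342 CPM against 110 and 182 CPM in its group and 46.5 to 80.4 CPM elsewhere, and for lymph node stroma and follicle genes, at 224 CPM against 71.8 and 99.4 CPM. Trained knockout replicate 2 reached 201 CPM for the lymph node list with 26.7 CPM for the T genes.

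**Figure D4:**
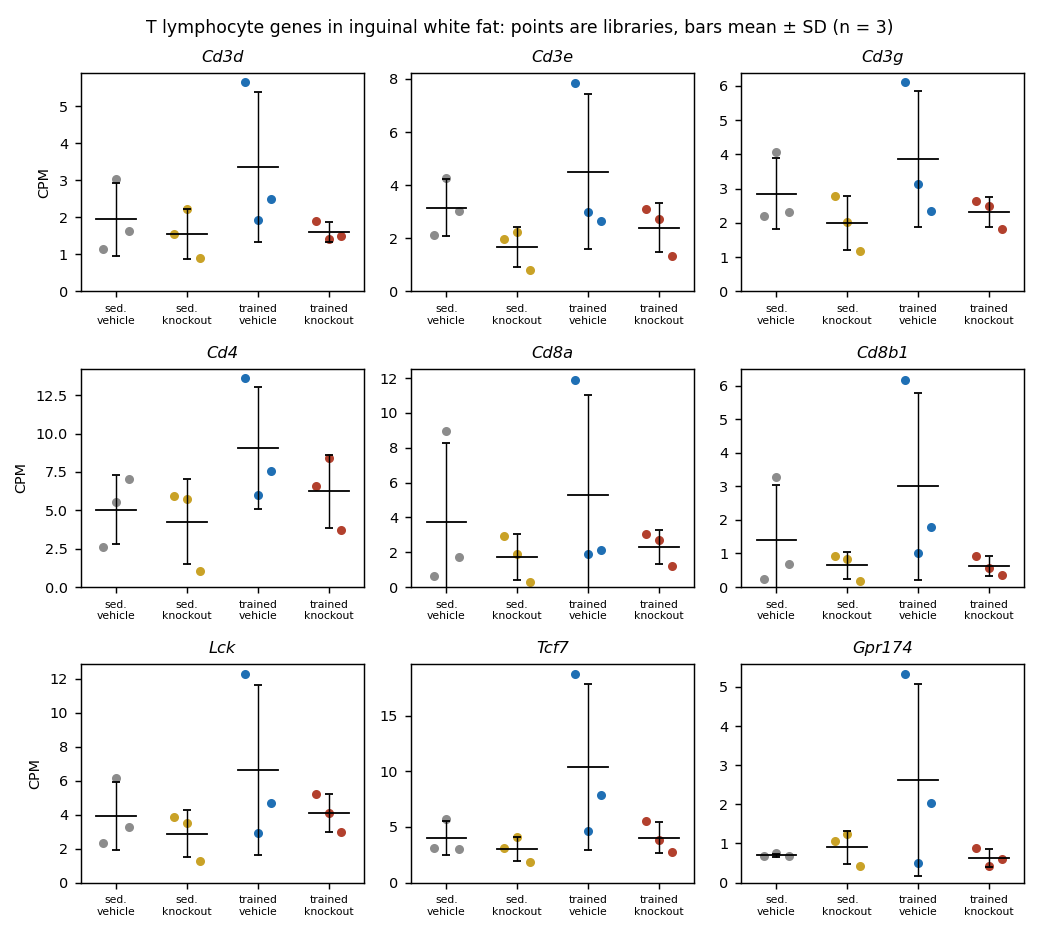
CPM of each of the 9 T lymphocyte genes in the 12 libraries of inguinal white fat, by group; points are libraries and bars are the mean ± SD (n = 3). In every panel the highest point is trained vehicle replicate 1, for example 18.8 CPM for Tcf7.

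With training in vehicle mice all 9 genes had higher fitted levels in fat, with a median of 0.77, and edgeR called 0 of 9 (0% of the 15448 genes tested). Tcf7 was at 3.14, 5.73 and 3.06 CPM in sedentary and at 18.8, 4.63 and 7.88 CPM in trained vehicle fat. The groups overlapped, and the difference was 1.38 (SE 0.49, adjusted p = 0.188, edgeR). Gpr174, at 0.666, 0.745 and 0.672 CPM against 5.32, 0.506 and 2.04 CPM, differed by 1.89 (SE 0.68, adjusted p = 0.194, edgeR), with the sedentary libraries close together and the trained ones spread on both sides of them. These were the 2 members with an unadjusted p under 0.05, against 10.2% of all genes higher. Without trained vehicle replicate 1, 4 of the 9 differences were above 0 and 5 below, with a median of -0.00914. The leukocyte genes moved in the same comparison: their 8-gene sum was 640, 617 and 759 CPM in sedentary and 1230, 1070 and 1000 CPM in trained vehicle fat, and the macrophage and monocyte sum was 2950, 2640 and 3480 CPM against 4900, 5750 and 4650 CPM, neither with overlap. The 9 T genes stood at 2.36, 6.78 and 3.08% of the leukocyte sum against 7.14, 2.34 and 3.35%, with overlap. The part of these cells in the T lymphocyte values was not tested.

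Between the trained groups all 9 genes were lower in knockout fat (median -1.07), and edgeR called 0 members where it called 4.43% of all genes, and 3.59% of all genes as lower. Cd8b1 was at 0.931, 0.58 and 0.353 CPM in trained knockout and at 6.19, 1.01 and 1.79 CPM in trained vehicle fat. These groups did not overlap, and the difference was -2.31 (SE 0.95, adjusted p = 0.165, edgeR). Cd3d was the other member without overlap (15.1% of all genes were lower in that way), at 1.91, 1.42 and 1.51 CPM against 5.66, 1.92 and 2.5 CPM, a difference of -1.07 (SE 0.47, adjusted p = 0.189, edgeR). Gpr174 (-2.05, SE 0.69, adjusted p = 0.102, edgeR) and Tcf7 (-1.40, SE 0.49, adjusted p = 0.112, edgeR) came nearest to the threshold, and DESeq2, which called no member in the other fat comparisons, called both (adjusted p = 0.0342 for Gpr174 and 0.0374 for Tcf7). DESeq2 called 1228 of 15346 genes lower in this comparison. In all, 4 members had an unadjusted p under 0.05, against 14.7% of all genes lower. Without trained vehicle replicate 1 the median was -0.27, and edgeR called neither a member nor any other gene.

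Genes of several leukocyte lists were called lower in trained knockout fat. These included the co-stimulatory receptor gene Cd28 (-1.84, adjusted p = 0.0385, edgeR) and the T cell kinase gene Prkcq (-1.72, adjusted p = 0.045, edgeR). They also included 5 of 12 B lymphocyte genes (Cd37 at -1.42 and Bank1 at -1.61 among them), 6 of 12 macrophage and monocyte genes (C1qc at -0.86 and C1qa at -0.71) and 5 of 8 genes of all leukocytes (Laptm5 at -1.30). Of 5 hepatocyte genes all had higher fitted levels in trained knockout fat, 4 at an unadjusted p under 0.05 (median 4.67). Over all genes, this comparison gave 0 calls in 5 of 6 fits with a library removed, those without trained vehicle replicate 1, 2 or 3 and those without trained knockout replicate 2 or 3. The part of these cell types and of hepatocyte RNA in the T lymphocyte values was not tested.

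In the remaining fat comparisons the direction of the members rested on single libraries. In sedentary mice 8 of 9 genes were lower in knockout fat (median -0.442), 0 at an unadjusted p under 0.05 (17.9% of all genes), and edgeR called 0 (0.557% of all genes). Without sedentary vehicle replicate 2 the count was 5 higher and 4 lower (median 0.02), and without sedentary knockout replicate 3 the median was -0.17. In knockout mice 7 of 9 genes were higher with training (median 0.37), 0 at an unadjusted p under 0.05 (16.3% of all genes), and 0 were called (0% of all genes). Without sedentary knockout replicate 3 the count was 4 higher and 5 lower (median -0.08), and without trained knockout replicate 1 or 2 the median was 0.10 or 0.24. The difference between the training effects was below 0 for all 9 genes (median -0.307) and called for 0 (0% of all genes). Without trained vehicle replicate 1 it was above 0 for 5 and below 0 for 4 (median 0.114), and over all fits with a library removed the median ran from -1.22 to 0.11. Gpr174, at -2.43 with all libraries (SE 0.97, adjusted p = 0.222, edgeR), was the 1 member with an unadjusted p under 0.05, against 11% of all genes.

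In liver, Tcf7 had the highest CPM of the 9 genes and the 7 members other than Tcf7 and Cd4 had a mean below 1 CPM. Cd3d, Cd3e and Cd3g averaged 0.388, 0.355 and 0.476 CPM against 3.86 CPM for Tcf7, which is not restricted to T cells. The cells behind the Tcf7 level were not tested. Tcf7 was at 2 to 5.41 CPM over the 20 libraries (median 3.81) and made up 49.6% of the summed CPM of the 9 genes on average. Cd4, the coreceptor gene, was at 0.223 to 2.19 CPM (median 1.07). The sum of the 9 had a lowest, median and highest value of 6.66, 7.22 and 10.1 CPM in sedentary vehicle, 7.85, 8.49 and 9.83 CPM in sedentary knockout, 5.67, 7.7 and 8.51 CPM in trained vehicle and 5.85, 6.94 and 8.65 CPM in trained knockout livers (n = 5 each), and the groups overlapped. Cd4 and Tcf7 were the 2 members that passed the filter of a mean of at least 1 CPM, and limma on log2(CPM + 1) called 0 of them in the 5 comparisons (0%, 0.0234%, 0%, 2.63% and 0.0078% of all genes for training in vehicle and in knockout mice, the knockout in sedentary and in trained mice, and the difference of the training effects).

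In heart no member reached a mean of 1 CPM, so none was tested at that filter. The sum of the 9 had a lowest, median and highest value of 2.04, 2.86 and 4.91 CPM in sedentary vehicle, 1.68, 2.01 and 3.03 CPM in sedentary knockout, 1.94, 2.53 and 4.39 CPM in trained vehicle and 1.98, 2.74 and 3.33 CPM in trained knockout hearts (n = 5 each), again with overlap. Of 180 member values 15 were 0 in heart and 11 in liver, and a value of 0 allows up to 3 reads, or 0.143 to 0.212 CPM in heart and 0.145 to 0.242 CPM in liver, counting error only. With the filter lowered to a mean of 0.1 CPM, all 9 members were tested in both organs and limma called 0. In heart that was against 4.82%, 0.0165%, 0%, 0.127% and 0% of all genes, and in liver against 0%, 0.00559%, 0%, 1.06% and 0%, in the order of comparisons given above. The lowest adjusted p among the members was 0.235 in heart and 0.25 in liver.

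**Figure D5:**
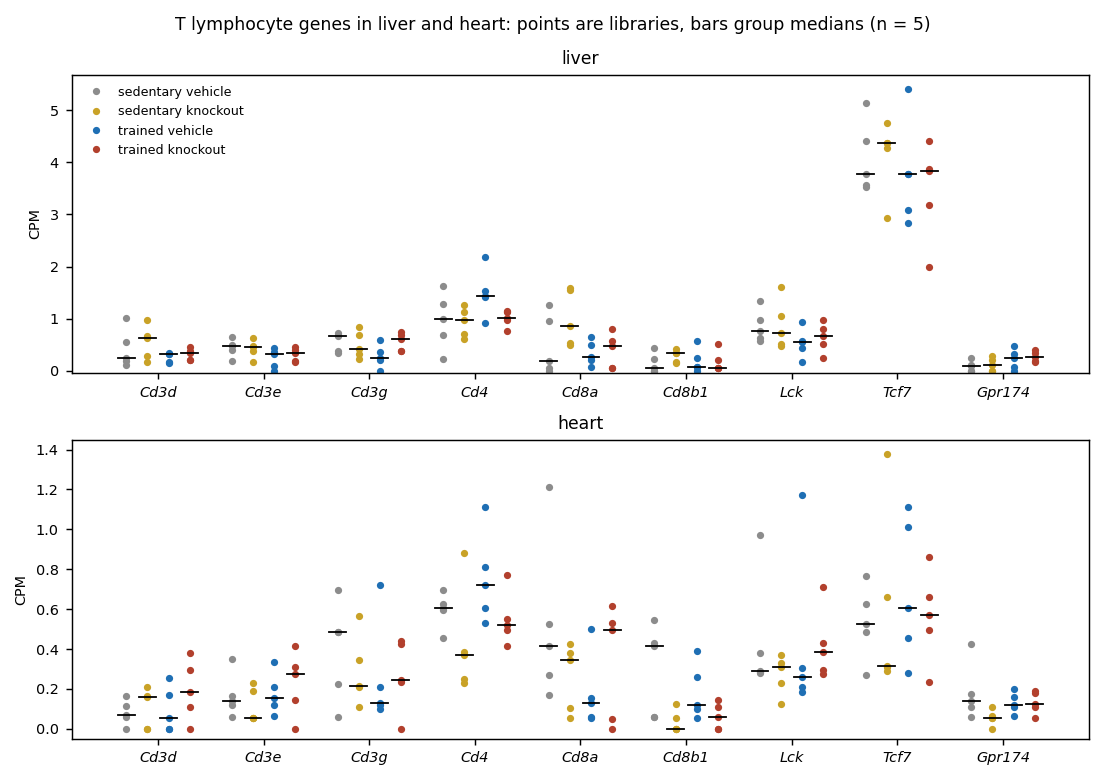
CPM of each of the 9 T lymphocyte genes in the 20 liver and the 20 heart libraries, by group; points are libraries and bars are group medians (n = 5). Tcf7 stands above the other genes in liver, at 2 to 5.41 CPM, and no heart value exceeds 1.38 CPM.

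The genes whose level followed the 9 members most closely over the 12 libraries were looked up in fat and in lung. By the Pearson correlation of log2(CPM + 1) with the members' mean standardised level, given as a description over libraries that share groups, the leading genes in fat included Dusp2 (0.984), Grap2 (0.973), Lat (0.967), Ptprcap (0.96), Fcho1 (0.958), Ltb (0.957), Rasgrp1 (0.951), Gimap3 (0.951) and Bcl11b (0.948), of 12396 candidates. Grap2 and Lat encode adaptors downstream of the T cell receptor. In lung they included Sh2d2a (0.984), Samsn1 (0.954), Apol7e (0.953), Sash3 (0.951), Acap1 (0.948), Klhl6 (0.948), Parvg (0.948), Syk (0.944) and Tnfrsf13b (0.944), of 13200. Tnfrsf13b, which encodes the receptor TACI, and Syk are known from B cells. Each member was set against the mean of the other members alone. Lck lay closest to that mean in both tissues (0.967 in fat, 0.965 in lung), and Gpr174 in fat (0.787) and Tcf7 in lung (0.755) lay farthest.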

How the data were processed

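RNA-seq tables of 4 tissues were analysed. For fat and lung, the deposited tables hold expected counts per transcript, not normalised by the authors; these were summed per gene symbol and rounded. For heart and liver, the deposited values are a scaled signal per gene: the labels call it CPM, but columns sum to 14840727 to 18537114, so each table was divided by 1 factor, which puts it on the scale of CPM. Per the submitters' processing notes, STAR 2.7.8a, Partek, mm10 and GRCm39 were used, with no role or order given. Fat and lung were tested with edgeR 4.0.16 (quasi-likelihood, TMM, filterByExpr, all 4 groups in 1 fit), and heart and liver with limma 3.58.1 on log2(value + 1), means of at least 1 CPM kept, in R 4.3.3. Adjustment was by Benjamini-Hochberg within each comparison, of 5 comparisons per tissue and 20 in all; the call threshold was an adjusted p of 0.05. The scripts were tested on simulated data, in which changed genes lay above 10 CPM and no library stood apart. Members at lower levels are not covered by that test. DESeq2 1.42.0, other scalings and filters, a replicate block and leaving out libraries were alternatives. The members and gene lists were chosen with earlier results of these data known. Named beside the members are, per list and comparison, up to 4 called genes by smallest p, and the 10 genes of most like pattern with a mean of at least 2 CPM. Some genes that this rule names are not reported here.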

Additional observations from a re-analysis of the deposited data

Results flagged for a closer look

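Each member and the sum of the 9 was looked at in each of the heart and liver groups of 5 libraries, 80 sets of values in all. In 6 of them 1 library lay far from the other 4 (Dixon's test at the 95% level, which chance passes in about 1 in 20 sets), and 3 of the 6 came from the same library. Trained vehicle replicate 4 in heart was high for Cd3g (0.723 CPM, next 0.212), Cd8a (0.5 CPM, next 0.152) and Lck (1.17 CPM, next 0.304). In heart, sedentary vehicle replicate 4 was high for Lck (0.97 CPM, next 0.378), and sedentary knockout replicate 5 was high for Cd4 (0.883 CPM, next 0.385). In liver, sedentary knockout replicate 3 was low for Tcf7 (2.93 CPM, next 4.28). The flagged heart values rest on an estimated 9 to 21 reads.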

How the results depend on the processing

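For training in vehicle lungs, where edgeR called 1 member, DESeq2 called 3, and the fit on the compared groups alone and the fit with the replicate number as a block each called 0; leaving out 1 library gave 0 to 4. DESeq2 also called 2 members for the knockout in trained fat and 1 for the knockout in sedentary lung, where edgeR called 0. Over all genes DESeq2 called more than edgeR in every fat and lung comparison: in fat 747 against 0 for training in vehicle mice, 558 against 0 for training in knockout mice, 921 against 86 for the knockout in sedentary mice, 1968 against 685 for the knockout in trained mice and 724 against 0 for the difference, and in lung, in that order, 411 against 33, 132, 257, 77 and 301 against 0 each; the cause was not tested. In heart and liver 0 members were called under every alternative that tested any. In heart, fits with 0.1 in place of 1 added before the log, with the block or on the compared groups alone tested 0 members. Those fits could therefore call none. The edgeR fit on estimated reads tested 2 members in heart, and fits with a lowered filter or none tested 9. In liver the same fits tested 1 or 2, 6 and 9 members. Gpr174 in trained vehicle lungs had an adjusted p of 0.0515 with the block. Without fat trained vehicle replicate 1 the sign turned for training in vehicle mice in Cd3e (-0.18; over all fits that leave out 1 library -0.18 to 0.77), Cd3g (-0.08 to 0.74), Cd8a (-0.92 to 2.13), Cd8b1 (-0.01 to 2.65) and Lck (-0.08 to 1.2), where the first value of each range is the one without that library. For the knockout in trained mice the same happened in Cd8a (-1.64 to 0.18) and Lck (-1.08 to 0.10), where it is the last. Without lung sedentary vehicle replicate 3, Cd3e turned to 0.04 for the knockout in sedentary mice (range -0.63 to 0.04). Without Tcf7 the mean summed CPM of the other 8 members was lower by construction. In lung it was 72.8, 49.3, 34.3 and 47.8 (sedentary vehicle, sedentary knockout, trained vehicle, trained knockout). In liver it was 3.98, 4.7, 3.58 and 3.68, in the same order, and in sedentary and trained knockout hearts 1.56 and 2.19. Same-numbered libraries did not all deviate together (correlations of -0.404 to 0.383 in fat, -0.265 to 0.334 in lung, -0.305 to 0.207 in heart and -0.523 to 0.289 in liver), with 6 of 18, 8 of 18, 6 of 30 and 10 of 30 pairs over 0.1. Pairing was taken to need every pair over 0.1, so the numbers were not used to pair the samples. With 3 libraries a group in fat and lung, and under 30 reads per library for the members in liver other than Tcf7 and in heart, small differences were not detectable.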
